A study of Homo sapiens with 24 samples.

Results

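ZNF22, ZNF22-AS1 and CEP164P1 are 3 neighbouring transcripts on chromosome 10, and they were followed here through 24 RNA libraries of the H1299 cell line, with the question of whether they rise together in each library. They are 3 of the 60563 named genes of the count table, and all 3 passed the filter on low counts that left 18295 genes for testing. They were chosen by measured values of these same libraries, namely their higher counts in the Δ133p53 cell lines than in the control, so the differences from the control are given as a description with no test. The H1299 line comes from a human lung tumour of the non-small cell type, and the study's methods call it p53 null. Stable clonal lines made from it with a plasmid express a p53 isoform that lacks the first part of the protein, and each line is 1 clone. There were 4 libraries each of vector-only control cells, Δ133p53α1, Δ133p53α2, Δ133p53α8 and Δ133p53β10, and 3 of Δ133p53β5. 1 more Δ133p53β library is titled as Δ133p53β10 but named in the counts as Δ133p53β5, so it was placed in no group and its values are given apart. The promoter that drives the isoforms is not given in the sources used here, and nothing in the labels says that the libraries of a line came from separate cultures, so p-values measure only the spread between these libraries.

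ZNF22 encodes a small zinc finger protein of the C2H2 class, a large family of DNA-binding proteins. An antisense transcript such as ZNF22-AS1 is a noncoding RNA made from the opposite strand, and where it starts beside the start of a coding gene and runs away from it, the pair is called divergent or head to head, an arrangement common at promoters rich in CpG dinucleotides. CEP164P1 is named as a pseudogene of CEP164, which encodes a protein of the centriole needed to form primary cilia. A pseudogene is a copy of a gene that no longer makes its protein, and some pseudogenes are still transcribed.

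On GRCh38, with the GENCODE v44 annotation, ZNF22 (ENSG00000165512) lies on the forward strand at chr10:45000923-45005326 and has 2 exons. The first exon ends at 45000978 and holds 5′ UTR only. The coding sequence, 675 bp with its stop codon, lies wholly in the second exon, at chr10:45003369-45004043. ZNF22-AS1 (ENSG00000165511), a lncRNA, lies on the reverse strand at chr10:44997698-45000888. Its start is 35 bp from that of ZNF22, the pair runs head to head, and no exon of one overlaps the other. CEP164P1 (ENSG00000226937), annotated as a transcribed processed pseudogene, lies on the reverse strand at chr10:45002222-45076066 and has 4357 bp of exon in 11 blocks. Its exon block nearest the 3′ end, 1854 bp at chr10:45002222-45004075, covers part of the intron of ZNF22 and 796 bp of its second exon, and all 675 bp of the ZNF22 coding sequence lie inside it. These 796 bp are 37.9% of the exonic length of ZNF22 and 18.3% of that of CEP164P1.

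The promoters of the head-to-head pair are printed because both transcripts start from one short stretch of DNA. RefSeq's promoter table (GRCh38.p14) matched 2 of the 3 transcripts, and each entry runs from 250 bases before the start to 50 after it, with every CpG dinucleotide in capitals. The starts here are those of RefSeq. For ZNF22-AS1 this is 45000803, which lies 120 bp from the ZNF22 start and differs from the GENCODE start given above. The ZNF22 promoter is chr10:45000673-45000972 on the forward strand and that of ZNF22-AS1 is chr10:45000754-45001053 on the reverse strand, so 219 bases are shared and appear in the sequences as reverse complements.
ZNF22: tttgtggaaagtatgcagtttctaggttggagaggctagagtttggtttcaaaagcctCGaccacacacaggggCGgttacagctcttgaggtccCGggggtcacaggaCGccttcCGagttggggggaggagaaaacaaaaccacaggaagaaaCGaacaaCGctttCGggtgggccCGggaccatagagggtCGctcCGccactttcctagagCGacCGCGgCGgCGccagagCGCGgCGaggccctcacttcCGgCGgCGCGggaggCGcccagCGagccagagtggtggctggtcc
ZNF22-AS1: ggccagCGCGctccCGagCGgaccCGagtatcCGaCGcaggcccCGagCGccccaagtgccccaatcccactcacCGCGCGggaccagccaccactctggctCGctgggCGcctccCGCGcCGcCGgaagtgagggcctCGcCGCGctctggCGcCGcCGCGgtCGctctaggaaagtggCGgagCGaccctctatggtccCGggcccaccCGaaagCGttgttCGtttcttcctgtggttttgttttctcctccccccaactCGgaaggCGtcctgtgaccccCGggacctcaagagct
The ZNF22 promoter held 25 CpG dinucleotides at a GC content of 62.3%, and 32.0% of the 35116 promoters of the table held as many. The ZNF22-AS1 promoter held 35 at a GC content of 69.7%, and 14.1% of promoters held as many. GGGCGG, the core of a GC box, was found once in the ZNF22 promoter and in 45.0% of all promoters, searched on both strands. CCAAT was found once in the ZNF22-AS1 promoter and in 34.6% of all. TATAAA was found in neither and in 11.5% of all promoters. The E-box CACGTG was found in neither and in 7.26% of all, and the p53 half-site in neither and in 6.63% of all.

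The authors counted reads by exon and summed them by gene. Total counts ranged from 21531599 to 25381731 per library, and levels are given as counts per 1000000 reads (CPM) scaled with TMM factors, which correct for differences in composition between libraries. KRT8, KRT18 and VIM were at 410.7 CPM or more in every library, and KRT19, EPCAM and CDH1 were at 0.227 CPM or less. CDH2 was between 16.0 and 47.9 CPM and FN1 between 2.05 and 19.5 CPM, and 4 leukocyte and 3 endothelial markers reached at most 0.685 CPM. Libraries also differed in a trend with gene length. Spearman's rho between a gene's deviation from its mean and its exonic length was between 0.184 and 0.300 in 12 libraries (positive trend) and between -0.267 and -0.113 in the other 12 (negative trend), and both kinds occurred in every group. This split is given beside the results it moves with.

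ZNF22 was near the edge of detection in the control, and the libraries of the lines held 101 to 338 reads of it. The 4 control libraries held 10, 12, 15 and 8 reads, or 0.382, 0.510, 0.547 and 0.338 CPM. The Δ133p53α1 libraries held 209, 179, 143 and 101 reads (8.64, 9.15, 7.98 and 5.40 CPM). All of them lay above every control library. The Δ133p53α2 libraries held 164, 312, 331 and 338 reads (9.30, 13.5, 13.6 and 13.6 CPM), and those of Δ133p53α8 held 291, 194, 314 and 312 (12.5, 9.04, 13.3 and 13.0 CPM). In each of these lines 3 libraries lay close together and 1 lay below them. The Δ133p53β5 libraries held 268, 237 and 233 reads (11.5, 10.9 and 10.8 CPM), the closest set of the 5 lines. The Δ133p53β10 libraries held 283, 201, 116 and 204 reads (11.7, 9.76, 5.95 and 8.50 CPM). The library with no group held 167 reads, or 8.63 CPM.

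The mean level of ZNF22 increased in the order control (0.444 ± 0.0999 CPM, SD, n = 4), Δ133p53α1 (7.79 ± 1.67, n = 4), Δ133p53β10 (8.98 ± 2.42, n = 4), Δ133p53β5 (11.0 ± 0.405, n = 3), Δ133p53α8 (12.0 ± 1.98, n = 4) and Δ133p53α2 (12.5 ± 2.15, n = 4). The ranges of neighbouring lines in this order overlapped, and the control lay below all of them. Farther apart in the order, the range of Δ133p53α1 (5.40 to 9.15 CPM) lay below those of Δ133p53β5 (10.8 to 11.5) and Δ133p53α2 (9.30 to 13.6). The fitted log2 fold changes against control were 4.76 (SE 0.28) in Δ133p53α2, 4.70 (SE 0.28) in Δ133p53α8, 4.58 (SE 0.28) in Δ133p53β5, 4.27 (SE 0.27) in Δ133p53β10 and 4.07 (SE 0.27) in Δ133p53α1, which is 16.8- to 27.2-fold. Among all 18295 genes tested, ZNF22 ranked between 18 and 37 from the highest fold change in these comparisons. With bulk RNA, more cells with the transcript and more transcript per cell cannot be told apart.

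ZNF22-AS1, the antisense transcript, was the least abundant of the 3. The control libraries held 0, 2, 1 and 5 reads, or 0, 0.0849, 0.0365 and 0.212 CPM, and the 0 in control replicate 1 allows up to 3 reads, or 0.115 CPM, for counting error alone. The Δ133p53α1 libraries held 24, 28, 29 and 20 reads (0.992, 1.43, 1.62 and 1.07 CPM), and this line had the highest mean, 1.28 ± 0.297 CPM (SD, n = 4). It was also the line with the lowest mean of ZNF22. The Δ133p53α2 libraries held 12, 21, 18 and 40 reads (0.680, 0.911, 0.741 and 1.61 CPM). The Δ133p53α8 libraries held 21, 26, 12 and 21 reads (0.899, 1.21, 0.508 and 0.878 CPM). The Δ133p53β libraries lay within the span of these, with 27, 23 and 11 reads in Δ133p53β5 (1.16, 1.05 and 0.508 CPM) and 18, 17, 17 and 22 in Δ133p53β10 (0.745, 0.825, 0.871 and 0.916 CPM). The library with no group held 14 reads, or 0.724 CPM.

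Every library of a Δ133p53 line, and the library with no group, lay above every control library for ZNF22-AS1, and the lowest stood at 2.40 times the highest control value. Mean levels in the other lines were 0.986 ± 0.428 CPM (SD, n = 4) in Δ133p53α2, 0.908 ± 0.350 (n = 3) in Δ133p53β5, 0.874 ± 0.288 (n = 4) in Δ133p53α8 and 0.839 ± 0.0732 (n = 4) in Δ133p53β10, and the ranges of neighbouring lines in this order overlapped. The log2 fold changes against control were 3.85 (SE 0.54) in Δ133p53α1, 3.51 (SE 0.54) in Δ133p53α2, 3.38 (SE 0.56) in Δ133p53β5, 3.32 (SE 0.54) in Δ133p53α8 and 3.25 (SE 0.54) in Δ133p53β10. Control replicate 4 holds 5 of the 8 control reads, and without it these values were between 4.23 and 4.83.

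CEP164P1, the pseudogene transcript, stood as far above the control as ZNF22 in some libraries and hardly above it in others. The control libraries held 5, 8, 8 and 3 reads, or 0.191, 0.340, 0.292 and 0.127 CPM. The Δ133p53α1 libraries held 111, 40, 17 and 16 reads (4.59, 2.04, 0.948 and 0.855 CPM). The first of these libraries lay well above the other 3. The Δ133p53α2 libraries held 14, 151, 165 and 130 reads (0.794, 6.55, 6.79 and 5.24 CPM), and those of Δ133p53α8 held 137, 44, 142 and 139 (5.87, 2.05, 6.01 and 5.81 CPM). In both lines the library that was low for ZNF22 was also low here, and by more. The Δ133p53β5 libraries held 116, 62 and 88 reads (4.98, 2.84 and 4.07 CPM). Those of Δ133p53β10 held 113, 41, 6 and 77 reads (4.68, 1.99, 0.308 and 3.21 CPM), and the third of them lay within the control range. The library with no group held 33 reads, or 1.71 CPM.

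Mean levels of CEP164P1 were 0.237 ± 0.0962 CPM (SD, n = 4) in the control, 2.11 ± 1.74 (n = 4) in Δ133p53α1, 2.55 ± 1.85 (n = 4) in Δ133p53β10, 3.96 ± 1.07 (n = 3) in Δ133p53β5, 4.84 ± 2.78 (n = 4) in Δ133p53α2 and 4.93 ± 1.92 (n = 4) in Δ133p53α8. The ranges of neighbouring lines in this order overlapped. The log2 fold changes against control were 4.31 (SE 0.77) in Δ133p53α8, 4.29 (SE 0.77) in Δ133p53α2, 3.99 (SE 0.79) in Δ133p53β5, 3.36 (SE 0.76) in Δ133p53β10 and 3.10 (SE 0.76) in Δ133p53α1. Without Δ133p53α1 replicate 1 that of Δ133p53α1 was 2.40, and with the length-trend set as a term in the fit those of Δ133p53β5 and Δ133p53β10 were 4.72 and 4.04.

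**Figure D1:**
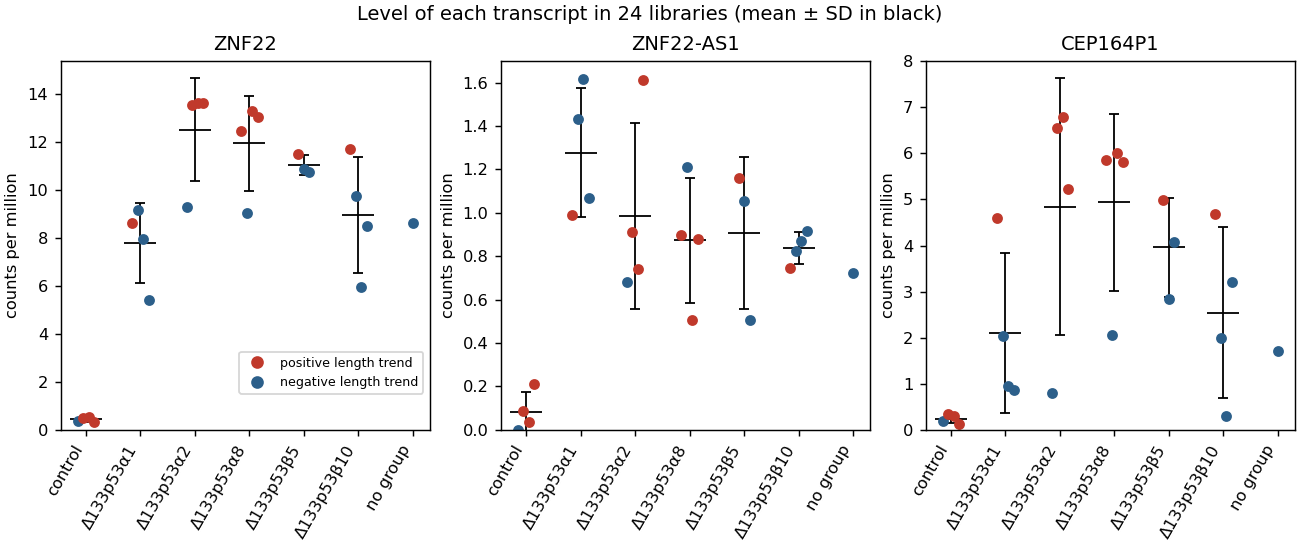
Level of ZNF22, ZNF22-AS1 and CEP164P1 in CPM (vertical axes, cut at 0) in the 24 libraries by group (horizontal axis), with 1 point per library coloured by the sign of its trend with gene length and the mean ± SD of each group in black. The control libraries lie at 0.547 CPM or less in all 3 panels, and the CEP164P1 points of each line split by colour.

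Taking the libraries 1 by 1, ZNF22 and ZNF22-AS1 each lay above all 4 control libraries in 20 of the 20 Δ133p53 libraries, the library with no group included, and CEP164P1 in 19 of 20, so all 3 were above the control in 19 of 20. The exception was Δ133p53β10 replicate 3. A gene was called where its log2 fold change reached 1.5 in either direction with an edgeR adjusted p below 0.05. All 3 transcripts met this in all 5 lines, as did 0.322% of the 18295 tested genes, but the same contrasts chose the transcripts, so the count only describes the choice. The share of genes called higher in a single line was 1.76% in Δ133p53β10, 1.31% in Δ133p53β5, 1.04% in Δ133p53α1, 0.984% in Δ133p53α8 and 0.978% in Δ133p53α2.

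The size of the rise was less alike between the 3 transcripts than its direction. Among the 20 libraries the highest value was 2.52 times the lowest for ZNF22, 3.19 times for ZNF22-AS1 and 22.1 times for CEP164P1. The variation of libraries around the mean of their own line is not the difference from the control on which the transcripts were chosen. It was compared over the 19 libraries with a line on the log2 CPM scale. The transcripts and tests were chosen with earlier results of these data known, so full independence from that choice is not shown. ZNF22 and CEP164P1 varied together (Pearson's r = 0.86, two-sided permutation p = 0.00106 from shuffles within lines, adjusted p over the 3 pairs 0.00318; Spearman's rho = 0.69, permutation p = 0.00724; n = 19). Without the 2 libraries farthest from the median of ZNF22, r was 0.82. No such relation was detected between ZNF22 and ZNF22-AS1 (r = 0.0023, adjusted permutation p = 0.992; rho = -0.12, permutation p = 0.593; n = 19) or between ZNF22-AS1 and CEP164P1 (r = -0.076, adjusted permutation p = 0.992; rho = -0.15, permutation p = 0.535; n = 19). The low counts of ZNF22-AS1, 11 to 40 reads in these libraries, limit what could be detected.

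Libraries of the positive length trend held more CEP164P1 than those of the negative trend in every line. Their lowest value lay above the highest of the negative-trend libraries in all 5 lines, and the ratio of the means was 7.80 in Δ133p53α2, 3.58 in Δ133p53α1, 2.88 in Δ133p53α8, 2.55 in Δ133p53β10 and 1.44 in Δ133p53β5. In every line, however, 1 of the 2 kinds was a single library, set against 2 or 3 of the other kind. Δ133p53α1, Δ133p53β5 and Δ133p53β10 had 1 positive-trend library, and Δ133p53α2 and Δ133p53α8 had 1 negative-trend library. The same holds for the ratios of ZNF22 and ZNF22-AS1 that follow. ZNF22 showed the same order in 4 of the 5 lines, with ratios between 1.06 and 1.46 over all 5. ZNF22-AS1 did not follow it, and its ratio was 0.723 in Δ133p53α1 and 0.629 in Δ133p53α8 against 1.60 in Δ133p53α2. Taken around the mean of each line and trend, which leaves 14 libraries, the correlation of ZNF22 and CEP164P1 was 0.75 (permutation p = 0.13, rho = 0.53), so it no longer passed the test. Without that centring it was 0.74 among the 9 positive-trend and 0.76 among the 10 negative-trend libraries, given as a description.

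The difference from the control was present within both kinds of library. Among positive-trend libraries the ratio of the mean of the lines to that of the 3 controls was 26.6 for ZNF22, 22.2 for CEP164P1 and 8.45 for ZNF22-AS1. Among negative-trend libraries, with 1 control library, it was 22.7 for ZNF22 and 10.00 for CEP164P1, and the control held no ZNF22-AS1 read.

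**Figure D2:**
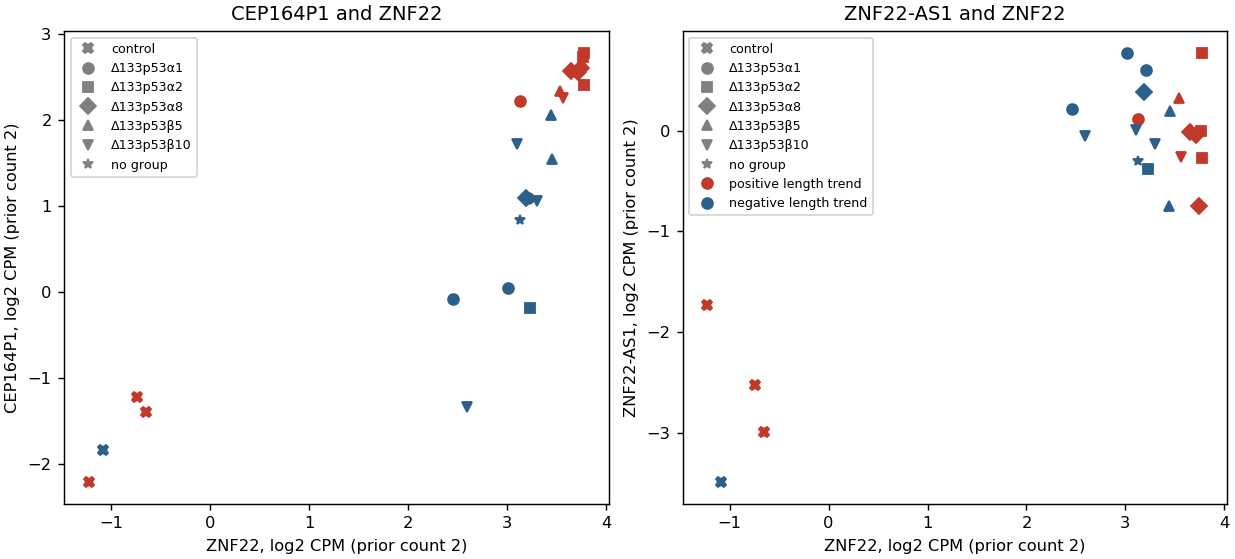
Log2 CPM (prior count 2) of CEP164P1 (left) and ZNF22-AS1 (right) against ZNF22 in the 24 libraries, with the symbol for the group and the colour for the sign of the length trend. In the Δ133p53 libraries CEP164P1 rises along ZNF22, with r = 0.86 around the means of the lines, while ZNF22-AS1 forms a cloud with r = 0.0023.

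The overlap of the exons bears on how these counts are read. The libraries were made with a kit that marks the strand, but the strand setting used in counting and the handling of reads from several places are not given in the sources used here. As a check, genes that lie wholly in an intron of an expressed gene were compared by strand. Intronic lncRNAs on the strand of their host had a median of 53.5 reads per kb over the 24 libraries (128 genes), and those on the opposite strand 50.1 (83 genes). For intronic processed pseudogenes the medians were 8.23 (258 genes) and 4.24 (650 genes). Genes on the opposite strand thus held reads at levels of the same order. The check compares different genes on each strand, so it does not settle the strand setting. If the strand was not used in counting, reads of ZNF22 and CEP164P1 from their shared stretch cannot be told apart. The part of this in the results for either was not tested. Summed over intronic genes, libraries of the positive trend held between 74.9 and 105 CPM (median 92.8, n = 12). Those of the negative trend held between 79.0 and 121 CPM (median 103, n = 12). The sum does not measure reads from the intron of ZNF22, and their part in the CEP164P1 counts was not tested.

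Relative to ZNF22, CEP164P1 kept a narrow ratio in the positive-trend libraries and a lower one in the others. The 9 positive-trend libraries of the lines held between 38.5 and 53.1 CEP164P1 reads per 100 ZNF22 reads (median 45.2), and the 10 negative-trend libraries held between 5.17 and 37.8 (median 21.4), so the 2 kinds did not overlap. The 4 control libraries held between 37.5 and 66.7, from 3 to 8 CEP164P1 reads each and with the negative-trend control among them. ZNF22-AS1 lay the other way by its medians, with 3.82 to 11.8 reads per 100 (median 6.73) in the positive-trend and 4.72 to 20.3 (median 12.1) in the negative-trend libraries of the lines, and these ranges overlapped. In Δ133p53α1, Δ133p53α8 and Δ133p53β10 every negative-trend library lay above every positive-trend library, and in the other 2 lines this was not so. Each line had only 1 library of 1 of the 2 kinds. Per length the order of the 3 was the same in every group. In Δ133p53α2, for example, mean levels were 5.95 CPM per kb of exon for ZNF22, 1.11 for CEP164P1 and 0.320 for ZNF22-AS1, and in the control they were 0.211, 0.0545 and 0.0270.

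**Figure D3:**
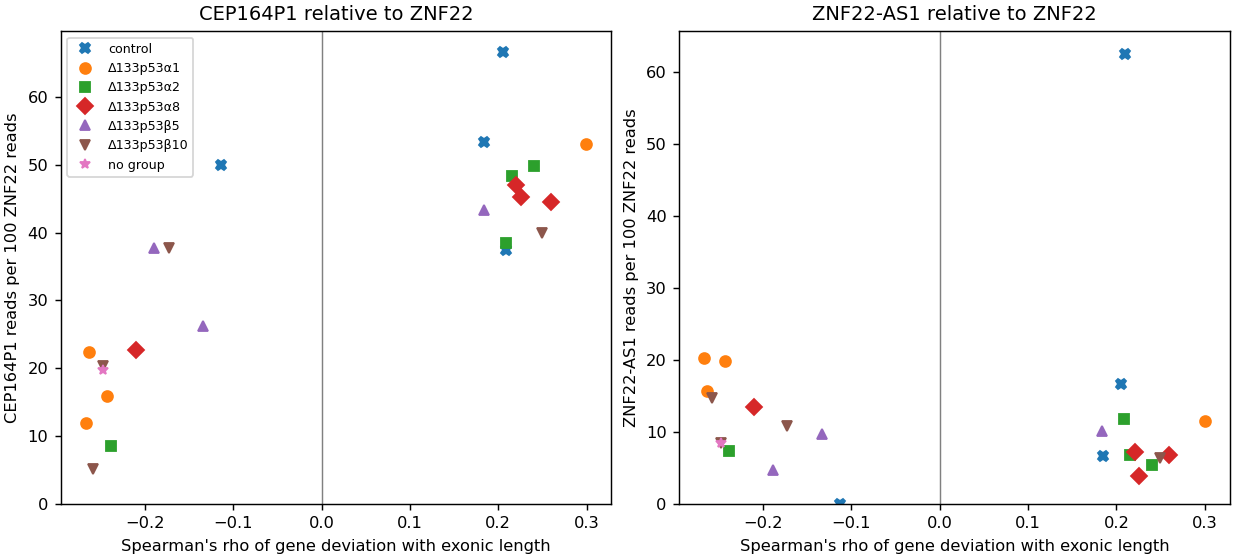
Reads of CEP164P1 (left) and ZNF22-AS1 (right) per 100 ZNF22 reads (vertical axes) against the Spearman's rho of each library's gene deviations with exonic length (horizontal axis), 1 symbol per library and group. The CEP164P1 ratio of the 9 positive-trend libraries of the lines lies between 38.5 and 53.1 and that of the 10 negative-trend libraries at 37.8 or less, and the control values rest on 15 or fewer ZNF22 reads each.

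The Δ133p53β and Δ133p53α lines did not differ detectably in any of the 3 transcripts. The difference (Δ133p53β minus Δ133p53α, log2, edgeR) was -0.08 for ZNF22 (95% interval -0.40 to 0.24, adjusted p = 0.863), -0.24 for ZNF22-AS1 (-0.85 to 0.36, adjusted p = 0.763) and -0.23 for CEP164P1 (-1.13 to 0.68, adjusted p = 0.866), and 4.76% of tested genes had an adjusted p under 0.05 in this comparison. For CEP164P1 the interval still holds a difference of more than 2-fold, and the sign turned with the trend as a term (0.37). A test for any difference among the 5 lines gave adjusted p-values of 0.233 for ZNF22, 0.763 for ZNF22-AS1 and 0.505 for CEP164P1 (edgeR), over ranges of the line means of 0.69, 0.60 and 1.21 on the log2 scale, where 3.50% of tested genes passed. The log2 ratio of reads (0.5 added to each count) was -3.48 ± 0.53 in the 7 Δ133p53β and -3.36 ± 0.75 in the 12 Δ133p53α libraries (SD) for ZNF22-AS1 over ZNF22, a difference of -0.12 (exact two-sided permutation p = 0.712). For CEP164P1 over ZNF22 it was -1.96 ± 1.05 and -1.76 ± 0.90, a difference of -0.19 (exact two-sided permutation p = 0.676). Libraries of 1 clone are not independent, and with whole lines as the unit, 3 against 2, the smallest p that can be reached is 0.1.

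The rise was not seen in the few genes around the locus that could be tested. Of 48 genes of the count table that lie within 1 Mb of ZNF22, 9 passed the filter, and none was called higher in any line. Of all tested genes, between 0.978% and 1.76% were called higher in a single line, so the absence of calls among 9 genes does not set them apart. Another 25 had no read in any library, and the other 14 had at most 24 reads over the 24 libraries. Within 250 kb the tested genes were RASSF4 and DEPP1, 2 of 22.

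RASSF4, which encodes a Ras association domain protein, ends 5 kb from ZNF22, on the far side of ZNF22-AS1. It was at 5.70 ± 2.46 CPM in the control (SD, n = 4) and between 1.93 and 8.62 CPM in the lines, and its log2 fold changes lay between -1.21 and -0.10 with adjusted p-values (edgeR) from 0.0885 to 0.950. DEPP1, a gene known as a target of FOXO transcription factors, lies 22.1 kb away inside the span of RASSF4, on the other strand. Reads of the pair may not be told apart where their exons overlap, and whether they do was not checked. The control libraries held 410, 71, 340 and 49 reads (15.7, 3.01, 12.4 and 2.07 CPM), and the 19 libraries of the lines held between 10 and 141 reads (0.428 to 6.57 CPM), so that 2 control libraries lay within the range of the lines. DEPP1 was called lower in Δ133p53β5 (log2 fold change -2.72, SE 0.81, adjusted p = 0.0421, edgeR), the only neighbour called in any line. That call was lost without control replicate 1 (adjusted p = 0.0966) or control replicate 3 (0.113), the libraries with the high counts. It was also lost without any 1 of the 3 Δ133p53β5 libraries (0.0654 to 0.185), without Δ133p53α2 replicate 3 (0.0512) or Δ133p53α8 replicate 3 (0.0530), with the library of no group counted in Δ133p53β5 (0.0945) and with limma voom (0.0730). The log2 fold change stayed negative in these settings, between -3.31 and -2.23 where 1 library was left out, -2.01 with the added library and -2.41 with limma voom. In the other 4 lines the log2 fold change of DEPP1 lay between -2.07 and -1.62 and did not pass. For 7.35% of tested genes a call was made in at least 1 line, in either direction.

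On the other side the nearest tested genes were MARCHF8, 449 kb away, which encodes a membrane ubiquitin ligase, ZFAND4 at 610 kb and the pseudogene FAM21FP at 701 kb. Their log2 fold changes lay between -0.30 and 0.24, -1.15 and -0.13, and -0.91 and -0.01, and none passed. The third tested gene on the RASSF4 side was HNRNPA3P1, outside the window at 1210.5 kb, with values between 0.03 and 0.73 that did not pass. TIMM23, at 967 kb, had an adjusted p of 0.0389 in Δ133p53β10 (edgeR) with a log2 fold change of 0.84, under the fold required. It is named after its values were seen. FAM21FP, HNRNPA3P1 and TIMM23 have close copies elsewhere in the genome, and their counts are uncertain where the authors' counting could split reads between copies. The median log2 fold change of the 9 tested neighbours lay between -0.69 and 0.02 over the 5 lines, and that of all tested genes between -0.08 and 0.01.

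Of 11 other ZNF genes of chromosome 10, 10 were tested and 2 were called in at least 1 line, both higher, beside 7.35% of all tested genes called in at least 1 line in either direction. ZNF503, which encodes a transcriptional repressor and lies 30392.5 kb from ZNF22, was at 2.32 ± 0.364 CPM in the control (SD, n = 4) and between 3.58 and 10.9 CPM in the lines, with no overlap. Its log2 fold changes were 1.57 in Δ133p53β5, 1.62 in Δ133p53α8, 1.75 in Δ133p53α2 and 1.99 in Δ133p53α1 (adjusted p between 8.18e-06 and 0.000192, edgeR). In Δ133p53β10 it was 1.20 and stayed under the fold required. The Δ133p53β5 value fell under that fold without Δ133p53β5 replicate 1 (1.38) or control replicate 4 (1.499). ZNF32 was called in Δ133p53β10 (log2 fold change 1.53, adjusted p = 0.00695, edgeR), where it was at 49.8 ± 19.1 CPM against 16.7 ± 4.34 CPM in the control (SD, n = 4 each). The fold lies near the threshold, and the call was lost with limma voom (1.47), with the trend as a term (1.05) and without Δ133p53β10 replicate 3 (1.31), Δ133p53β10 replicate 4 (1.47), control replicate 2 (1.49) or control replicate 4 (1.48). In Δ133p53α8, Δ133p53α1, Δ133p53α2 and Δ133p53β5 the log2 fold changes of ZNF32 were 0.84, 1.03, 1.26 and 1.28, all under the fold required. The adjusted p (edgeR) was 0.0357 in Δ133p53α2 and 0.0339 in Δ133p53β5, and it did not pass in Δ133p53α1 or Δ133p53α8. The median log2 fold change of the 10 lay between 0.02 and 0.51 over the lines.

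CEP164, on chromosome 11, shares sequence with CEP164P1. Of the 7 annotated transcripts of CEP164P1, the alignment to CEP164 covered between 0% and 100% of the length. The longest alignment of each had an identity of 76.1% to 92.1% where there was one. Whether the authors' counting split any reads between CEP164 and CEP164P1 was not tested. CEP164 was at 44.6 ± 5.42 CPM in the control (SD, n = 4) and between 30.7 and 60.8 CPM in the lines, and it was called in no line (log2 fold changes between -0.20 and 0.20, adjusted p from 0.392 to 0.891, edgeR). No other pseudogene of CEP164 was found by name in the count table.

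The 5 genes whose log2 CPM was most like that of ZNF22 over the 23 grouped libraries, by Pearson's r among 18294 other genes, were CTPS2, ANXA3, ERC2, NRN1 and CRACR2A, with r between 0.96 and 0.98. CTPS2 encodes a CTP synthase, ANXA3 a calcium-dependent phospholipid-binding protein, ERC2 a protein of the presynaptic active zone, NRN1 a neuritin and CRACR2A a calcium-binding regulator of store-operated calcium channels. They lie on chromosomes X, 4, 3, 6 and 12. ZNF22-AS1 ranked 25 (r = 0.87) and CEP164P1 33 (r = 0.86). All these values are largely set by the gap between the control and the lines. Over the 19 libraries of the lines alone, r with ZNF22 was 0.86 for CEP164P1, 0.83 for ANXA3, 0.76 for ERC2, 0.64 for NRN1, 0.55 for CRACR2A, 0.43 for CTPS2 and -0.23 for ZNF22-AS1, given as a description over libraries that share lines and the length trend.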

How the data were processed

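Poly(A) RNA of 24 libraries was sequenced by the authors with a strand-specific kit. Per the paper's methods, reads were trimmed with Cutadapt, aligned to GRCh38 (hg38 in the submitters' processing notes) with HISAT2, and featureCounts counted them over exons of Ensembl genes. The authors deposited raw counts per gene, without normalization and named by symbol. 1 row of 60564 has no name and no reads and was left out. Of the rows, 98.8% were matched by name to GENCODE v44.

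The 3 transcripts, the gene lists and the tests were chosen with earlier results of these data known. Log2 CPM used a prior count of 2. Differential expression used edgeR 4.0.16 in R 4.3.3: TMM factors, filterByExpr by group (18295 genes kept), 1 quasi-likelihood fit of 6 groups over 23 libraries (residual df of 17), and p-values adjusted by Benjamini-Hochberg across the 18295 genes. The authors state DESeq2's Wald test, and their processing notes name limma. DESeq2 1.42.0 and limma 3.58.1 were run as alternatives. The isoform comparison set the mean of the 3 Δ133p53α lines against that of the 2 Δ133p53β lines. Ratios were tested by exact permutation over 50388 assignments, and correlations by 100000 shuffles within lines (Python, SciPy). In simulated counts for the isoform comparison, 193 of 200 changed genes among 17985 were recovered, with 9 wrong calls. Across 33 pairs within groups, chi-square divided by its df was 15.8 or more, so no library repeats another of its own group. The check did not cover pairs across groups or the library with no group. Reads carry no molecular identifiers, so limits from counts cover counting error only.

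The named genes were the 3 transcripts, the 3 nearest tested genes on each side of ZNF22, further neighbours and chromosome 10 ZNF genes called in at least 1 line, CEP164 and the 5 genes most alike to ZNF22. 1 further gene of the rule is not reported here. The other settings tried were RLE size factors, all genes unfiltered, a mean of at least 1 CPM, the library with no group in either Δ133p53β line, the replicate number as a block, the length-trend set as a term, an adjusted p alone, other constants added to counts, and leaving out each library in turn.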

Additional observations from a re-analysis of the deposited data

Results flagged for a closer look

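The lowest of 4 libraries stood apart from its line by Dixon's criterion in 2 of the 15 groups of 4 tested, and chance gives about 1 in 20. ZNF22 was at 9.30 CPM in Δ133p53α2 replicate 1, where the other 3 libraries were between 13.5 and 13.6 CPM. CEP164P1 was at 2.05 CPM in Δ133p53α8 replicate 2, where the other 3 were between 5.81 and 6.01 CPM. Each is the only negative-trend library of its line, and the part of the trend in these values was not tested.

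The library with no group, which entered no comparison, held ZNF22 at 8.63 CPM, ZNF22-AS1 at 0.724 CPM and CEP164P1 at 1.71 CPM, all above the highest control library (0.547, 0.212 and 0.340 CPM). It shows the negative trend with gene length.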

How the results depend on the processing

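The isoform differences and the differences among the 5 lines of the 3 transcripts were compared across settings, with the isoform differences of the log2 ratios. All 234 combinations of result and setting stayed on the same side of the threshold. The lowest adjusted p was 0.0801, for the difference among the lines of ZNF22 (DESeq2 likelihood ratio test). The permutation p-values of the ratios were not adjusted. With the length-trend set as a term the isoform difference turned sign for ZNF22 (0.040) and CEP164P1 (0.37), chromosome 10 ZNF genes called in at least 1 line fell to 1, and the cause was not tested. Without each library in turn the isoform difference of CEP164P1 ranged from -0.46 to 0.019, that of the log2 ratio to ZNF22 from -0.24 to 0.024 for ZNF22-AS1 and from -0.35 to 0.17 for CEP164P1, neighbours called in at least 1 line from 0 to 2, and chromosome 10 ZNF genes from 1 to 3. The 2 neighbours were found without Δ133p53α1 replicate 1 and with an adjusted p alone, which also called 1 chromosome 10 ZNF gene in all 5 lines. Limma voom called 0 neighbours and 1 ZNF gene, and 0 neighbours were called with the library of no group in Δ133p53β5. The replicate numbers did not pair the libraries (correlations of same-numbered libraries from -0.88 to 0.89, and 3 of 23 libraries correlated best with their own number), and with the replicate block 0 neighbours and 2 ZNF genes were called and the isoform differences were -0.10, -0.17 and -0.29 for ZNF22, ZNF22-AS1 and CEP164P1. The block also ended the calls in Δ133p53β5 of DEPP1 (log2 fold change -2.91, adjusted p = 0.0616, edgeR) and of ZNF503 (1.47, under the fold required).

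The within-line correlation of ZNF22 and CEP164P1 passed in 23 of the 24 other settings, and within line and trend it was 0.75 over 14 libraries and did not pass (adjusted permutation p = 0.39). That of ZNF22 and ZNF22-AS1 lay around 0, at -0.00014 with a prior count of 0.5, at -0.065 without the 2 farthest libraries, and from -0.14 to 0.17 without each library in turn, and that of ZNF22-AS1 and CEP164P1 ranged from -0.31 to 0.034. ZNF22-AS1 had too few reads to be tested at a mean of at least 1 CPM. Depth limits the control values most, with 8 ZNF22-AS1 reads over 4 libraries.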
